A study of Mus musculus with 19 samples.

Results

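Acod1, Nos2, Arg1, Arg2, Ass1, Slc7a2, Odc1, Gch1, Ido1 and Kmo encode enzymes and a carrier that make itaconate or nitric oxide or that break down arginine and tryptophan. They were taken as a fixed set of 10 genes, and 9 of the 10 could be read among the 30142 genes measured by a probe set with exactly 1 gene symbol. For a gene with several such probe sets the brightest was used, although each of the 9 had only 1. Acod1 stands in the platform table under its older symbol Irg1. The probe set of Ass1, which encodes argininosuccinate synthase, is shared with the symbol Gm5424, so Ass1 was not analysed here.

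The arrays came from C57BL/6J mice, an inbred strain, operated at 10 weeks of age. The infrarenal aorta was perfused for 5 min at 120 mmHg with saline that held porcine pancreatic elastase (PPE) at 2.5 U/mL, which digests elastic fibres and is followed by an abdominal aneurysm, or with saline alone (sham). That stretch of aorta, below the renal arteries, was taken at day 7, with 1 mouse per array. There were 7 male PPE, 5 male sham, 4 female PPE and 3 female sham arrays, and precision is limited by how few arrays each group has. Each array holds the RNA of the whole wall segment, so more cells of a type and more RNA per cell cannot be told apart.

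Values are log2 expression values as deposited, so a difference of 1 is a 2-fold difference. Median values over all 65956 probe sets lay between 5.61 and 5.85 on male arrays and between 6.17 and 6.31 on female arrays. PPE was therefore set against sham within each cohort, and sex cannot be told apart from anything else that differed between the cohorts. Called means a Benjamini-Hochberg adjusted p below 0.05 over all 30142 genes in limma, with the 4 groups sharing 1 variance per gene. Mean values of the smooth muscle, fibroblast and endothelial marker lists lay between 10.15 and 16.44 on all arrays, far above the 95th percentile of 1225 olfactory receptor genes (5.55 to 6.57), which served as a guide to dim signal. Male sham 4 stood apart with a mean of 12.78 over 8 adipocyte markers, against 7.67 to 8.67 on the other male sham arrays. Male sham 4, male sham 5 and male PPE 1 had higher medians (5.83, 5.78 and 5.85) than the other male arrays (at most 5.73). Their highest values (19.71, 19.68 and 19.69) were lower than on the other male arrays (19.83 to 19.92). They were therefore left out together in 1 alternative, and the cause was not tested.

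Macrophages activated by microbial products or interferon gamma divert metabolites from the citric acid cycle and from amino acids. ACOD1 decarboxylates cis-aconitate, a citric acid cycle intermediate, to itaconate, which inhibits succinate dehydrogenase. Arginine enters through carriers such as SLC7A2 and is used either by the inducible nitric oxide synthase NOS2, which needs the tetrahydrobiopterin made from GTP by way of GCH1, or by the arginases ARG1 and ARG2, which give ornithine for the polyamine enzyme ODC1. IDO1 opens the breakdown of tryptophan to kynurenine, which KMO hydroxylates. In mice Nos2 and Arg1 are common markers of opposed states of macrophage activation.

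In males 6 of the 9 measured genes rose after PPE (Acod1, Nos2, Gch1, Arg2, Odc1 and Kmo), Slc7a2 fell, and Arg1 and Ido1 were not called. Of all genes 19.7% were called in the same comparison, 9.67% higher and 9.98% lower. The median log2 change was 0.90 over the 9 genes and 0.01 over all genes. In females 4 of the 9 rose (Acod1, Gch1, Arg2 and Kmo) and none was called lower, while 4.22% of all genes were called, 2.77% higher and 1.45% lower. The median log2 change in females was 0.52 over the 9 genes and −0.02 over all genes. The 4 genes called in females were all called in males. The set was chosen with earlier results of these arrays known, so these counts describe it and are not independent evidence.

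**Figure D1:**
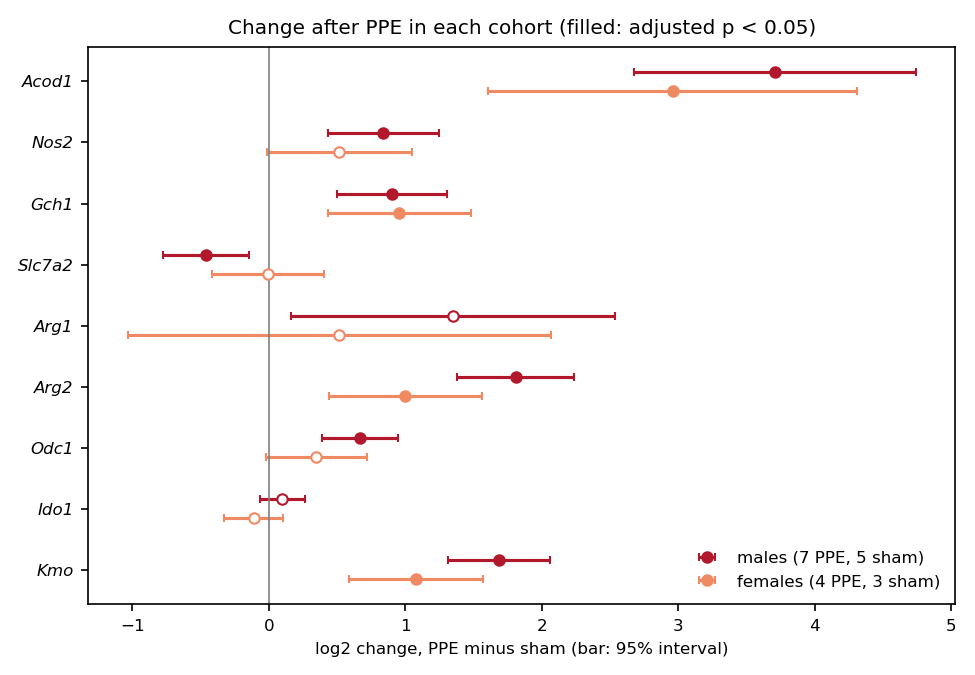
Log2 change, PPE minus sham, of the 9 measured genes (rows) in males (7 PPE, 5 sham arrays) and females (4 PPE, 3 sham arrays), with 95% intervals from limma; filled points have an adjusted p below 0.05. Acod1 has the largest change in both cohorts (3.71 in males, 2.96 in females), and the interval of Arg1 in females spans −1.03 to 2.06. Interval widths rest on the variance shared by the 4 groups, not on the arrays of 1 cohort.

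The female count rests on few arrays. It was 0 without female sham 2, 1 without female sham 1 or female sham 3, 2 without female PPE 1 or female PPE 3, and 2 when each array was centred on its median or when the female arrays were fitted alone. The male count was 6 or 7 in every fit that left out 1 array, the only gene at issue being Slc7a2.

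Acod1 (chromosome 14, 103047012 to 103056573, GRCm38.p6), the itaconate-forming enzyme, showed the largest change of the set. Its male PPE values had a lowest of 10.24, a median of 10.83 and a highest of 11.79, against 7.29, 7.43, 6.87, 7.55 and 6.97 on the male sham arrays. All 7 male PPE arrays lay above all 5 male sham arrays, by at least 2.69, and 4.69% of all genes showed such separation. The rise was 3.71 ± 0.49 (SE, 13.1-fold, adjusted p = 2.76e-05, n = 7 and 5), and it was called in all 19 fits that left out 1 array, at 3.57 to 3.82.

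In females Acod1 stood at 11.79, 9.41, 10.12 and 7.94 on the PPE arrays, against 8.16, 5.86 and 6.55 on the sham arrays. The groups overlapped, since female PPE 4 (7.94) lay below female sham 1 (8.16). The SD was 1.60 among female PPE and 1.18 among female sham arrays, against 0.52 among male PPE and 0.29 among male sham arrays. The rise in females was 2.96 ± 0.64 (7.77-fold, adjusted p = 0.0129, n = 4 and 3). All 4 female PPE arrays and 1 of 3 female sham arrays exceeded the olfactory receptor guide, so the sham level was dim and the fold is uncertain. The call was lost without female sham 2 (adjusted p = 0.0972) or female sham 3 (0.0581) and when the female arrays were fitted alone (0.106).

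The 3 genes whose deviations from their cohort's mean lay nearest to those of Acod1 over the 19 arrays were Il1b, which encodes interleukin 1 beta, at a root mean square difference of 0.546 log2 units, Il1rn, which encodes the interleukin 1 receptor antagonist (0.715), and the chemokine gene Ccl5 (0.733). The deviations of Acod1 itself had a root mean square of 1.89. Il1b shared the order of Acod1 among the female PPE arrays, with 14.94, 12.55, 14.02 and 12.27 in PPE arrays 1 to 4. Among the male PPE arrays the order was not shared. Both genes were highest on male PPE 3, but Acod1 was lowest on male PPE 1 (10.24) and Il1b on male PPE 4 (14.32). Il1b was picked by nearness to Acod1 on these same arrays, so a shared order is partly built in. This measure holds the PPE difference as well as the spread within groups.

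The 250 bases before the RefSeq start of the 3 genes called in both cohorts that have an entry in the promoter table (Acod1, Gch1 and Kmo) are shown because these genes rose in both cohorts. They are written 5′ to 3′ on the gene's strand, from chr14:103046762-103047011 (plus), chr14:47189414-47189663 (minus) and chr1:175631943-175632192 (plus) of GRCm38.p6, and capitals mark matches to any of the motifs searched on both strands.
Acod1: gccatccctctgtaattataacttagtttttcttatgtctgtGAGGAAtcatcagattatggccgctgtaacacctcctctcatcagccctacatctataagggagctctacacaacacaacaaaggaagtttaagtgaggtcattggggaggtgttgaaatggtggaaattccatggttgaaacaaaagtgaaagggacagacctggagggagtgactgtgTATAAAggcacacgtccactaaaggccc
Gch1: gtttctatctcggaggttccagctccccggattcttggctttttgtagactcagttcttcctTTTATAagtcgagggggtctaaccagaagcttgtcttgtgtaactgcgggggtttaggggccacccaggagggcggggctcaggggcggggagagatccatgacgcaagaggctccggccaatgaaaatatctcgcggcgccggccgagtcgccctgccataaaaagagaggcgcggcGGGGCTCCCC
Kmo: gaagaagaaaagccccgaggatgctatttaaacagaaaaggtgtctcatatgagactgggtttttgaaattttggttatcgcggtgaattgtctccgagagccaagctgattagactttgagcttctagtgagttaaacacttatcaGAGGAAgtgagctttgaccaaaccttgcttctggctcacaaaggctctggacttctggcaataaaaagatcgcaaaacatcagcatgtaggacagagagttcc
The motifs were the interferon-stimulated response element (GAAA, any 2 bases, GAAA), the gamma-activated site (TTCNNNGAA), the PU.1 core (GAGGAA), C/EBP (TTGCNNAA), the E-box (CACGTG), the TATA box (TATAAA) and the NF-kappa B site. The PU.1 core, found in 23.3% of 32851 promoters of the same length, matched in Acod1 and Kmo. The TATA box (12.4% of promoters) matched in Acod1 with its first base 28 bases before the start, and on the opposite strand 188 bases before the start of Gch1. The NF-kappa B site (7.25% of promoters) matched in the last 10 bases before the start of Gch1. The other 4 motifs, held by 2.98% to 9.56% of promoters, had no match in these windows, and none of the 7 matched in the window of Odc1.

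Nos2 and Gch1, which make nitric oxide and a cofactor it needs, rose in males. Nos2, the inducible nitric oxide synthase (chromosome 11, 78920787 to 78960226), had a lowest value of 6.35, a median of 6.59 and a highest value of 7.26 on the male PPE arrays, against 5.59, 5.59, 6.29, 5.95 and 5.87 on the male sham arrays. The groups did not overlap, although only 0.06 separated the lowest PPE from the highest sham array, and 4.69% of all genes had every male PPE array above every male sham array. The rise was 0.84 ± 0.19 (1.79-fold, adjusted p = 0.00425). Signal was low: 7 of 7 male PPE and 1 of 5 male sham arrays stood above the 95th percentile of the olfactory receptor genes on the same array.

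In females Nos2 stood at 7.60, 6.41, 7.05 and 6.45 on the PPE arrays, against 6.35, 6.43 and 6.30 on the sham arrays. Female PPE 1 and female PPE 3 were high, and female PPE 2 and female PPE 4 lay beside the highest sham array. The difference was 0.52 ± 0.25 with a 95% interval of −0.02 to 1.05, and it was not called (adjusted p = 0.362).

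Gch1, the first enzyme of tetrahydrobiopterin synthesis (chromosome 14, 47153895 to 47189413), rose in both cohorts. It had a lowest value of 7.24, a median of 8.26 and a highest value of 8.49 on the male PPE arrays, against 6.89, 7.10, 7.26, 7.04 and 7.06 on the male sham arrays. Male PPE 1 (7.24) and male PPE 7 (7.42) were the lowest PPE arrays, and male PPE 1 fell within the sham range. The rise in males was 0.90 ± 0.19 (1.87-fold, adjusted p = 0.00206).

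In females the 4 PPE arrays read 8.52, 8.43, 8.42 and 7.98 for Gch1, all above the 7.60, 7.40 and 7.14 of the sham arrays. The rise was 0.96 ± 0.25 (1.94-fold, adjusted p = 0.0359), in a comparison where 11.0% of all genes had every PPE array above every sham array and 8.86% every PPE array below. The call was lost without any 1 of female sham 1, 2 or 3 or female PPE 1, 2 or 3 (adjusted p = 0.0676 to 0.15), and with arrays centred on their medians (0.0846).

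Slc7a2, which encodes the cationic amino acid carrier CAT2 (chromosome 8, 40862341 to 40922070), was lower after PPE in males. It had a lowest value of 12.13, a median of 12.48 and a highest value of 12.65 on the male PPE arrays, against 12.84, 12.52, 13.38, 12.47 and 13.05 on the male sham arrays, and the groups overlapped. The log2 change was −0.46 ± 0.15 (1.38-fold lower, adjusted p = 0.0367). The call was lost without male sham 1, 3 or 5 or male PPE 1, 5 or 6 (adjusted p = 0.0636 to 0.108), and with median centring (0.103), array weights (0.0508) or the male arrays alone (0.0678). In females it stood at 13.35, 12.93, 13.52 and 13.54 on the PPE arrays, against 13.45, 13.33 and 13.25 on the sham arrays, a difference of −0.01 ± 0.20 (95% interval −0.42 to 0.40, adjusted p = 0.992).

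**Figure D2:**
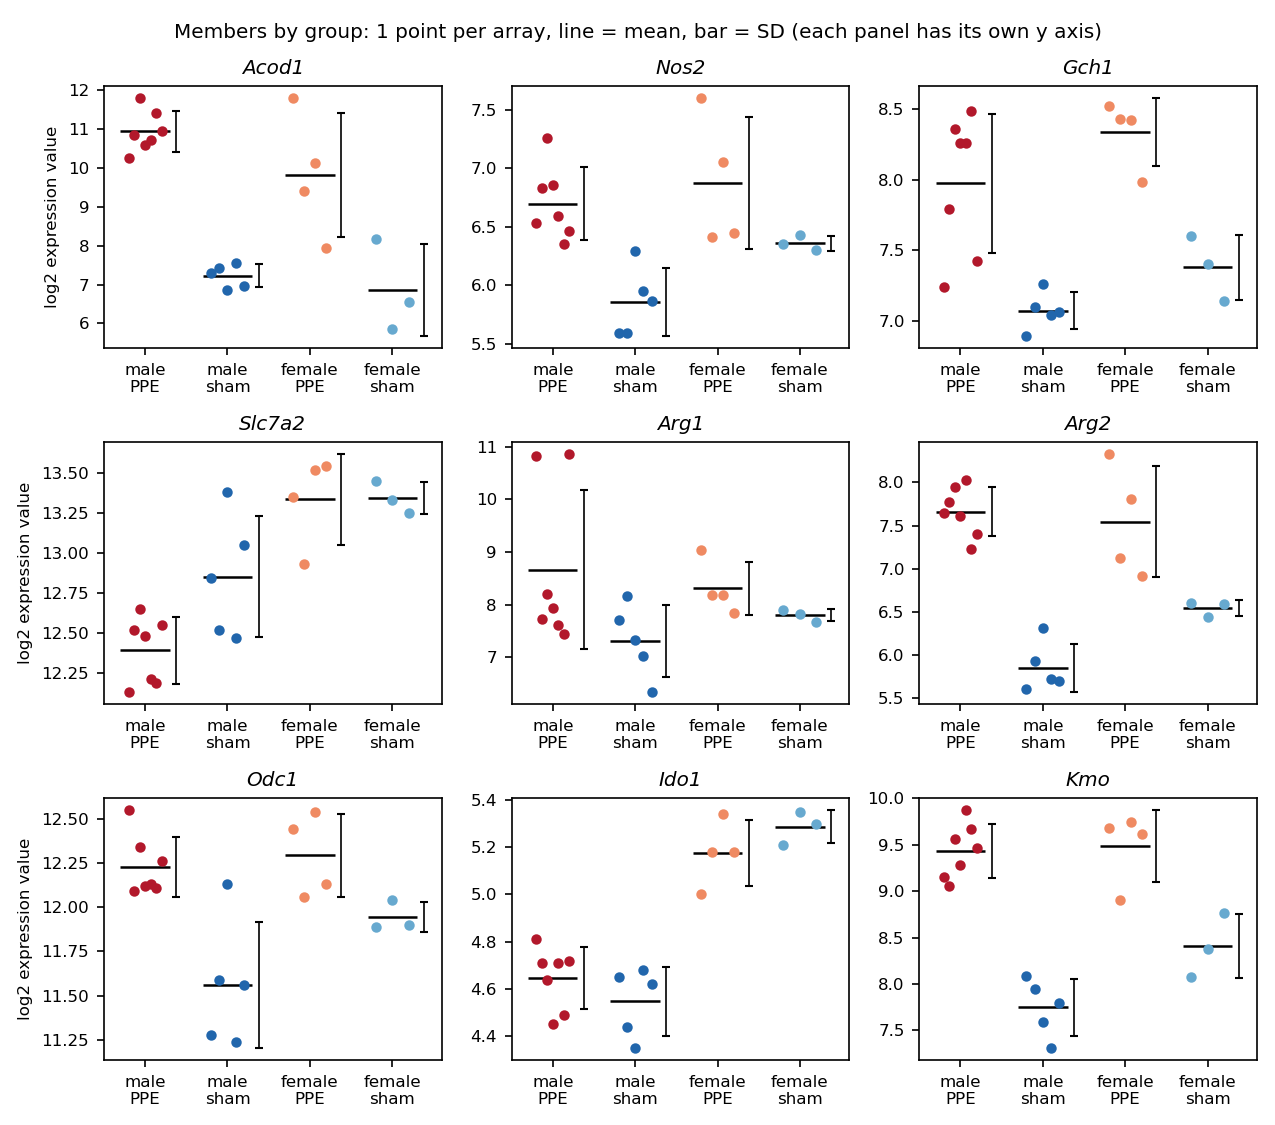
Log2 expression value of each measured gene (1 panel per gene, each with its own y axis) on every array of the male PPE, male sham, female PPE and female sham groups; the line is the group mean and the bar its SD. Male PPE and male sham arrays do not overlap for Acod1, Nos2, Arg2 and Kmo, and Arg1 has 2 male PPE arrays near 10.8 with the others between 7.44 and 8.21. Of all genes 4.69% had every male PPE array above every male sham array.

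Of the 2 arginases, which split arginine into ornithine and urea, only the mitochondrial one was called. Arg2 (chromosome 12, 79130788 to 79156301) had a lowest value of 7.23, a median of 7.65 and a highest value of 8.03 on the male PPE arrays, against 5.61, 5.93, 6.31, 5.72 and 5.70 on the male sham arrays. All male PPE arrays lay above all male sham arrays, by at least 0.92, a separation shared by 4.69% of all genes. The rise was 1.81 ± 0.20 (3.50-fold, adjusted p = 5.64e-06). All 7 male PPE arrays and 2 of 5 male sham arrays exceeded the olfactory receptor guide, so the sham level was dim.

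In females Arg2 stood at 8.33, 7.13, 7.81 and 6.92 on the PPE arrays, all above the 6.61, 6.44 and 6.59 of the sham arrays. That separation was shared by 11.0% of all genes in females. The rise was 1.00 ± 0.27 (2.00-fold, adjusted p = 0.0396). The call was lost without female sham 1, 2 or 3, female PPE 1 or 3, male sham 2 or male PPE 4 (adjusted p = 0.0501 to 0.16), with median centring (0.0736) and with the female arrays alone (0.119). The nearest genes to Arg2 over the 19 arrays were Trem1, which encodes an activating receptor of myeloid cells, at 0.199 log2 units, Gad1-ps (0.229) and Mcemp1 (0.252). Their log2 changes in males were 2.02, 1.82 and 2.00.

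Arg1, the cytosolic arginase (chromosome 10, 24915207 to 24927470), divided the male PPE arrays. Male PPE 1 and male PPE 7 stood at 10.82 and 10.86, and the other male PPE arrays at 7.72, 8.21, 7.94, 7.62 and 7.44, against 7.70, 8.16, 7.33, 7.02 and 6.34 on the male sham arrays. The SD was 1.51 among male PPE and 0.69 among male sham arrays. The difference of 1.35 ± 0.56 had a 95% interval of 0.16 to 2.54 and was not called (adjusted p = 0.112). It stood at 0.98 without male PPE 7, 0.99 without male PPE 1, 0.69 with array weights, and 0.57 when male PPE 1 was left out together with male sham 4 and 5. It was called in none of 28 alternatives. In females Arg1 stood at 9.03, 8.18, 8.19 and 7.85 on the PPE arrays, against 7.89, 7.83 and 7.67 on the sham arrays, a difference of 0.52 ± 0.74 that was not called (adjusted p = 0.852). That SE rests on the variance shared with the male arrays. The SD of Arg1 was 0.50 among female PPE and 0.11 among female sham arrays.

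The nearest genes to Arg1 over the 19 arrays were Pf4, which encodes a chemokine of platelets also made by macrophages (0.609 log2 units), and the neutrophil chemokine genes Cxcl2 (0.636) and Cxcl3 (0.639). The deviations of Arg1 itself had a root mean square of 1.08, so even these genes were not close. Pf4 stood at 11.45 and 10.58 on male PPE 1 and male PPE 7, and at 9.07 to 9.81 on the other male PPE arrays. Cxcl3 stood at 8.94 and 8.65 on those arrays and at 7.10 to 7.73 on the others, and Cxcl2 at 10.18 and 10.17 against 8.47 to 9.71. These values were looked up because of Arg1 and are given without a test. The genes were picked by nearness to Arg1, so high values on male PPE 1 and male PPE 7 are partly built in.

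**Figure D3:**
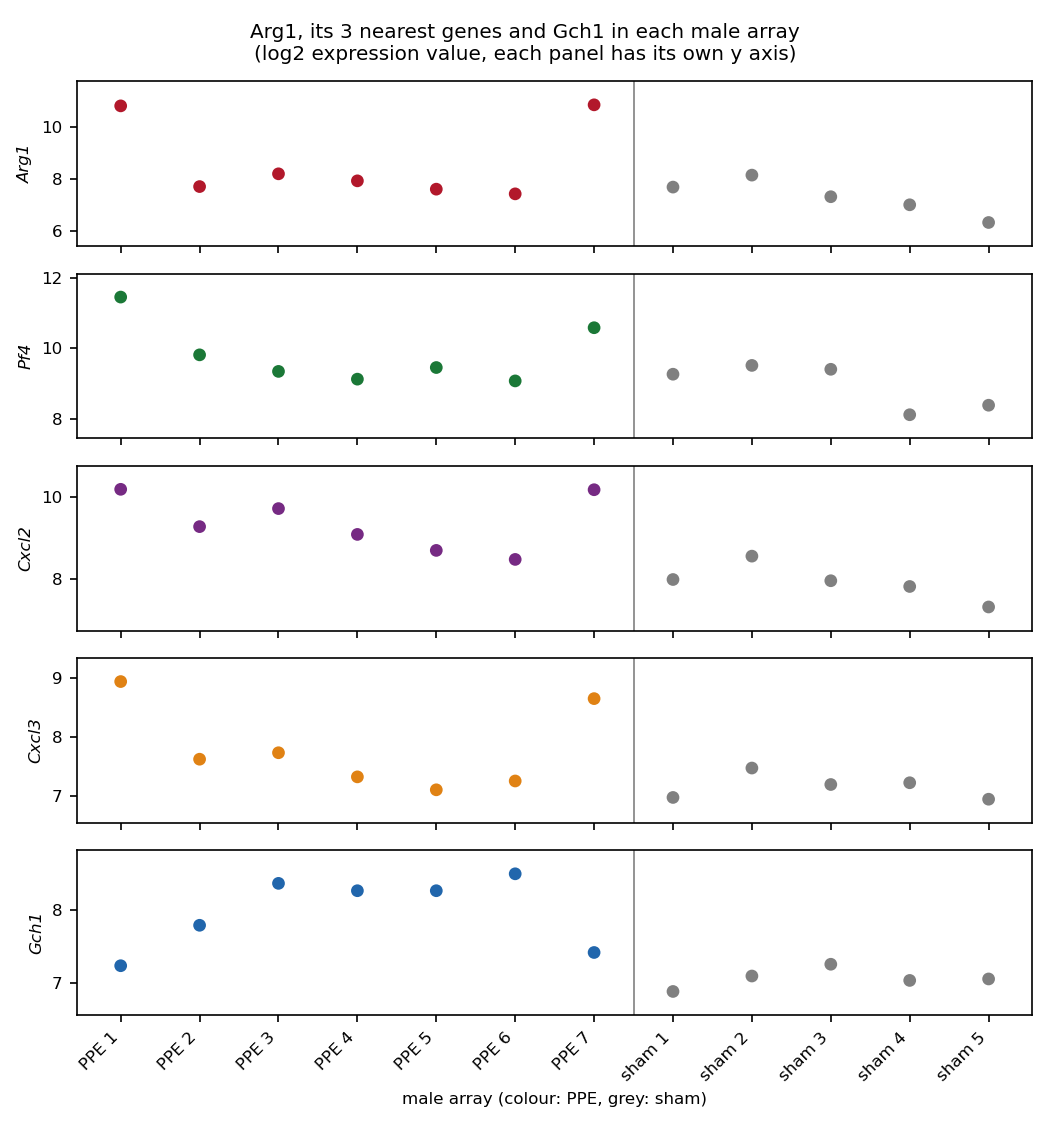
Log2 expression value of Arg1, of its 3 nearest genes Pf4, Cxcl2 and Cxcl3, and of Gch1 (rows, each with its own y axis) on the 7 male PPE arrays (colour) and the 5 male sham arrays (grey). Male PPE 1 and male PPE 7 are the highest PPE arrays for the first 4 genes and the lowest for Gch1 (7.24 and 7.42).

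Genes of the interleukin 4 list took different places on the arrays with high Arg1. Retnla, an alternative activation gene of mouse macrophages, stood at 5.08 on both male PPE 1 and male PPE 7 and at 5.29 to 6.61 on the other male PPE arrays. Its signal was dim, above the olfactory receptor guide on 2 of 7 male PPE arrays and below it on male PPE 1 and male PPE 7. Mrc1, the mannose receptor gene, stood at 13.82 and 14.67 on these arrays and at 13.91 to 15.16 on the others. Mgl2, a macrophage lectin gene, stood at 8.28 and 8.16 on them, with the highest male PPE value on male PPE 1. Cd163 stood at 6.94 and 6.91 on them, within the 6.53 to 7.55 of the male PPE arrays. Il4ra (13.23), Il13ra1 (12.60) and Stat6 (10.64) had their lowest male PPE values on male PPE 1, but not on male PPE 7 (13.34, 13.08 and 10.75). Il10 (4.81) had its lowest on male PPE 7, below the olfactory receptor guide of that array (5.58), and stood at 5.26 on male PPE 1. The mean of the macrophage marker list was 13.25 and 13.10 on these arrays, the lowest among the male PPE arrays, which reached 14.06. Male PPE 1 is also among the male arrays with a higher median and a lower highest value. The part of cell content or of array scale in the Arg1 values was not tested.

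Odc1, the first enzyme of polyamine synthesis (chromosome 12, 17544808 to 17551502), rose in males. It had a lowest value of 12.09, a median of 12.13 and a highest value of 12.55 on the male PPE arrays, against 11.28, 11.59, 12.13, 11.24 and 11.56 on the male sham arrays. Male sham 3 (12.13) alone overlapped the PPE arrays. The rise was 0.67 ± 0.13 (1.59-fold, adjusted p = 0.00134). In females Odc1 stood at 12.44, 12.06, 12.54 and 12.13 on the PPE arrays, all above the 11.89, 12.04 and 11.90 of the sham arrays though by as little as 0.02, with a difference of 0.35 ± 0.17 that was not called (adjusted p = 0.378). Such separation was found for 11.0% of all genes in females.

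Along the tryptophan branch, Kmo rose in both cohorts and Ido1 gave only dim signal. Kmo, which encodes the flavoprotein kynurenine 3-monooxygenase (chromosome 1, 175632193 to 175660853), had a lowest value of 9.06, a median of 9.46 and a highest value of 9.87 on the male PPE arrays, against 8.09, 7.95, 7.59, 7.31 and 7.80 on the male sham arrays. The groups did not overlap, and 4.69% of all genes had every male PPE array above every male sham array. The rise of Kmo was 1.69 ± 0.18 (3.22-fold, adjusted p = 3.45e-06). In females Kmo stood at 9.68, 8.91, 9.74 and 9.62 on the PPE arrays, all above the 8.08, 8.38 and 8.77 of the sham arrays. That separation was shared by 11.0% of all genes. The rise in females was 1.08 ± 0.23 (2.11-fold, adjusted p = 0.0127), lost without female sham 1 (0.0869) or female sham 2 (0.0634).

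The nearest genes to Kmo over the 19 arrays were Jaml, which encodes a leukocyte adhesion molecule (0.202 log2 units), the ribonuclease gene Rnase6 (0.218) and Sla, which encodes an adaptor of lymphocytes and myeloid cells (0.219). Their log2 changes were 1.76, 1.79 and 1.68 in males and 1.10, 1.16 and 1.16 in females.

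Ido1 (chromosome 8, 24584133 to 24596952) lay below the olfactory receptor guide on all 19 arrays. Its values ranged from 4.45 to 4.81 on male PPE and from 4.35 to 4.68 on male sham arrays, and from 5.00 to 5.34 on female PPE and from 5.21 to 5.35 on female sham arrays. The differences of 0.10 ± 0.08 in males and −0.11 ± 0.10 in females were not called (adjusted p = 0.465 and 0.742). The 95% intervals were −0.07 to 0.27 in males and −0.33 to 0.11 in females.

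None of the 9 genes was called for a difference of the PPE response between the cohorts, male minus female. In that contrast limma called 0.541% of all genes by adjusted p, 0.0398% higher and 0.501% lower. The share of all genes with an unadjusted p below 0.05 was not counted. At that looser threshold 1 of the 9 genes passed, which cannot be set against the adjusted shares. That gene was Arg2, whose change in males exceeded that in females by 0.81 ± 0.33 (95% interval 0.10 to 1.51, unadjusted p = 0.0268, adjusted p = 0.402). For Acod1 the difference was 0.75 ± 0.81 with an interval of −0.95 to 2.45, and for Kmo it was 0.61 ± 0.29 with an interval of −0.01 to 1.23. For Gch1 the interval was −0.71 to 0.61, and for Nos2 −0.35 to 0.99. With intervals this wide the cohorts were not shown to respond alike or differently.

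Markers of macrophages, neutrophils, dendritic cells and T and NK cells were called higher after PPE in both cohorts, with fewer calls in females. Whether these markers followed the 9 genes from array to array was not tested. Of 10 macrophage markers 9 rose in males, where the list mean ranged from 13.10 to 14.06 on PPE and from 11.22 to 12.82 on sham arrays, and 1 rose in females, where it ranged from 13.37 to 13.99 on PPE and from 12.73 to 13.04 on sham arrays. Of 10 neutrophil markers 8 rose in males (list mean 8.12 to 9.18 on PPE and 6.60 to 7.68 on sham arrays) and 5 in females (8.31 to 9.10 on PPE and 6.79 to 7.10 on sham arrays). Of 8 dendritic cell markers 7 rose in males and 4 in females, and of 8 T and NK cell markers 8 rose in males and 7 in females. All 7 smooth muscle markers fell in males and 5 in females. Over all genes 9.67% were called higher and 9.98% lower in males, and 2.77% higher and 1.45% lower in females. The part of these cell types in the changes of the 9 genes was not tested.

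Interferon gamma and toll-like receptor signals are known to induce Acod1 and Nos2 in macrophages. Of 11 measured genes of the interferon gamma and toll-like receptor list 10 rose in males (median log2 change 1.29) and 4 in females (median 0.94), with none called lower. Over all genes 9.67% were called higher in males and 2.77% in females. Il1b rose by 3.65 in males and 2.81 in females, Irf1, an interferon-induced transcription factor gene, by 1.84 and 1.06, Irf8, a transcription factor gene of the myeloid lineage, by 1.35 in males with a call in females too (adjusted p = 0.0018), and the receptor gene Tlr2 by 1.51 and 0.97. Ifng rose by 1.14 in males (adjusted p = 0.000531) and stood at 0.82 without a call in females (0.105), where it was called without female PPE 4 (0.0357). Its signal was dim, above the olfactory receptor guide on 2 of 7 male PPE, 0 of 5 male sham, 0 of 4 female PPE and 0 of 3 female sham arrays. The receptor gene Ifngr1 rose by 0.91 in males. Without female sham 2 only 1 gene of this list was called in females, and Irf1, Il1b and Tlr2 lost their calls. The part of these signals in the changes of Acod1 and Nos2 was not tested.

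Of 11 measured genes of the interleukin 4 and alternative activation list 4 rose in males and none was called in females (median 0.28 in males and 0.21 in females). Over all genes 9.67% were called higher in males, and 4.22% were called in females. The receptor genes Il4ra and Il13ra1 rose by 1.45 and 0.86 in males, Stat6, which relays their signal, by 0.28, and Il10 by 0.51. The signal of Il10 was dim. It exceeded the olfactory receptor guide on 2 of 7 male PPE, 0 of 5 male sham, 0 of 4 female PPE and 0 of 3 female sham arrays. Stat6 lost its call when male sham 1, male sham 4 or male PPE 3 was left out (highest adjusted p = 0.081), and the list had 1 call in females without female PPE 4. Il4 and Il13 were not called, at 0.07 and 0.01 in males. Both lay below the guide on every array, so a change in them could not be read.

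**Figure D4:**
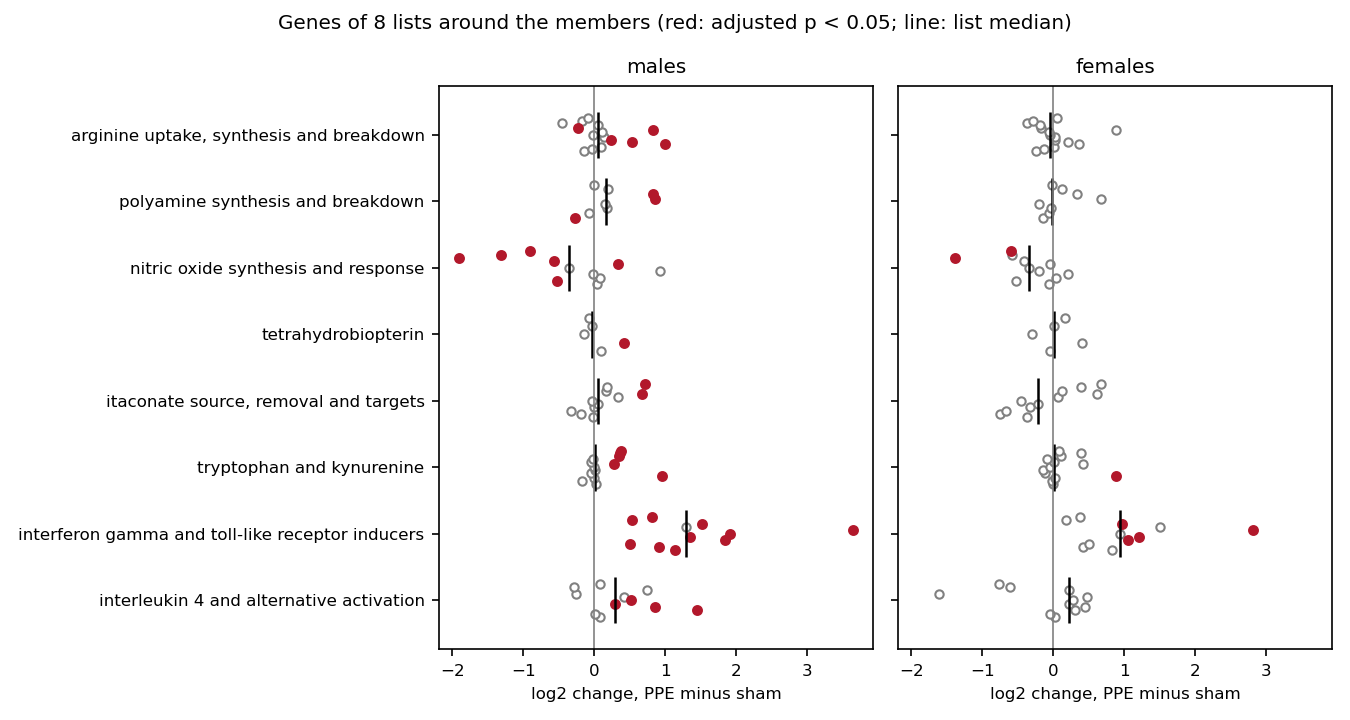
Log2 change, PPE minus sham, of each measured gene of 8 lists around the set (rows) in males (left) and females (right); red points have an adjusted p below 0.05 and the black line is the list median. The interferon gamma and toll-like receptor list lies to the right of 0 in both cohorts (medians 1.29 and 0.94). The median of the nitric oxide list lies to the left (−0.35 and −0.34). Some of its genes lie to the right, among them Prmt1 (0.34, called) and Ddah1 (0.93, not called) in males and Nostrin (0.20, not called) in females.

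While Nos2 rose in males, several genes that make nitric oxide or relay its signal in the vessel wall fell. Of 11 measured genes of the nitric oxide list, which leaves out Nos2, 5 fell and 1 rose in males, and 2 fell in females (median −0.35 in males and −0.34 in females). Over all genes 9.98% were called lower and 9.67% higher in males, and 1.45% lower in females. Gucy1b1, which encodes a subunit of the soluble guanylate cyclase that senses nitric oxide, fell by 1.91 ± 0.21 on the log2 scale in males (3.76-fold, adjusted p = 4.28e-06) and by 1.39 ± 0.27 in females (2.62-fold, adjusted p = 0.0075). Its values were 8.75 to 9.84 on male PPE against 10.77 to 11.81 on male sham arrays, and 10.40 to 11.14 on female PPE against 12.05 to 12.25 on female sham arrays, without overlap in either cohort. Of all genes 4.68% in males and 8.86% in females had every PPE array below every sham array.

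Pde5a, the phosphodiesterase gene that ends the cyclic GMP signal, fell by 0.91 in males and by 0.60 in females (adjusted p = 3.53e-05 and 0.0404). The female call was lost in 8 of 19 fits without 1 array: without female sham 1, 2 or 3, female PPE 1, 2 or 3, male sham 1 or male PPE 7. Prkg1, the cyclic GMP-dependent kinase gene, fell by 1.31 in males (adjusted p = 1.1e-05) and stood at −0.58 without a call in females (0.143). Nos3, the endothelial synthase gene, fell by 0.52 in males (adjusted p = 0.00431) and stood at −0.53 in females (0.0687), where it was called without female sham 3, female PPE 4 or male sham 5. Nos1, the neuronal synthase gene, was not called (0.04 in males and −0.06 in females). The smooth muscle list mean was 11.22 to 12.29 on male PPE and 12.88 to 13.95 on male sham arrays, and 12.02 to 12.67 on female PPE and 13.39 to 13.61 on female sham arrays. Of 8 endothelial markers, a list that holds Nos3 itself, 5 fell in males and none was called in females. The part of these cells in the fall of the nitric oxide genes was not tested.

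Among the arginine genes outside the set, 4 of 15 measured rose and 1 fell in males, and none was called in females (median 0.06 in males and −0.05 in females). Over all genes 9.67% were called higher and 9.98% lower in males, and 4.22% were called in females. The carrier genes Slc7a7 and Slc3a2, whose products pair to exchange cationic for neutral amino acids, rose by 0.99 and 0.53 in males. Gatm and Gamt, the first and second enzymes of creatine synthesis from arginine, moved in opposite directions in males, Gatm rising by 0.82 and Gamt falling by 0.24. Gamt lost its call without male sham 5 (adjusted p = 0.0511). Its signal was dim, at 5.60 to 5.95 on male PPE and 5.84 to 6.13 on male sham arrays. It lay below the olfactory receptor guide on male PPE 1, male sham 4 and every female PPE array. In females Gatm stood at 0.88 without a call (adjusted p = 0.0572), and it was called without male sham 2, male PPE 1 or male PPE 6. Slc7a1 and Slc7a3, the other cationic carriers of the Slc7a2 family, were not called in males (−0.14 and −0.03), although Slc7a1 was called lower without male sham 4 (adjusted p = 0.0317). Without that array 3 genes of the list were called lower in males and 4 higher.

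Of 8 measured polyamine genes 2 rose and 1 fell in males, and none was called in females (median 0.16 in males and −0.03 in females). Over all genes 19.7% were called in males and 4.22% in females. Smox, which oxidises spermine, rose by 0.83 (adjusted p = 9.85e-06), and Sat1, which acetylates spermidine and spermine for export or breakdown, by 0.86 (0.00037). Oaz2, an antizyme gene whose product leads ODC1 to the proteasome, fell by 0.27. In females Sat1 stood at 0.67 without a call (adjusted p = 0.0621), and it was called without male sham 3 or male sham 4.

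Of 5 measured tetrahydrobiopterin genes beside Gch1 only Pts, the second enzyme of that synthesis, rose in males (0.42, adjusted p = 0.00603) and none was called in females. The male count is near the 19.7% of all genes called in males, so it does not mark out this list. In females 4.22% of all genes were called. Gchfr, the feedback regulator of GCH1, was not called at 0.09 in males. With 3 male arrays left out (sham 4, sham 5 and PPE 1) none of the 5 was called in males, and without male sham 3 there were 2.

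Of 13 measured genes of tryptophan and kynurenine metabolism outside the set 5 rose in males and 1 in females (median 0.00 in males and 0.01 in females). Over all genes 9.67% were called higher in males and 2.77% in females. Kynu, the kynureninase acting on the product of KMO, rose by 0.96 ± 0.11 in males and 0.88 ± 0.15 in females (adjusted p = 8.38e-06 and 0.0034), with PPE and sham arrays apart in both cohorts and the call kept in all 19 fits without 1 array. Kynu lay below the olfactory receptor guide on every sham array (5.25 to 5.50 in males, 6.12 to 6.36 in females). The sham level was thus dim and the size of the rise is uncertain. Of all genes 4.69% in males and 11.0% in females had every PPE array above every sham array. Haao, the next enzyme towards quinolinate, rose by 0.27 in males (adjusted p = 0.0372), and the kynurenine receptor gene Ahr by 0.37 (0.0321). Both calls were lost without male sham 4 among other arrays, and the count in males was then 2 of 13. The count in males was 2 to 5 without 1 array, and in females it was 2 without male sham 3 or 5 or male PPE 6. Wars, the tryptophanyl-tRNA synthetase gene, rose by 0.38 in males. Ido2 and Tdo2, the other enzymes that open tryptophan breakdown, were not called (0.02 and −0.18 in males), and Tdo2 was called lower without male PPE 4 (adjusted p = 0.0482).

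Of 11 measured genes that supply, remove or answer to itaconate 2 rose in males and none was called in females (median 0.05 in males and −0.22 in females). The male count is near the 19.7% of all genes called in males, so it does not mark out this list. In females 4.22% of all genes were called. Nfe2l2, which encodes NRF2, the factor released when itaconate alkylates KEAP1, rose by 0.67 in males (adjusted p = 0.00255) and stood at 0.61 in females (0.0801), where it was called without male sham 4. Nfkbiz, an NF-kappa B cofactor gene, rose by 0.71 in males (0.0285), and its call was lost without male sham 1, 4 or 5 or male PPE 3, 4 or 6. Cs, the citrate synthase gene, was not called, at −0.02 in males and −0.37 in females. Without male sham 4 the list had 4 calls in females, 1 higher and 3 lower, and a median of 0.22 in males, and without male sham 1 or 5 or male PPE 3, 4 or 6 it had 1 in males. None of the 11 was called for a difference between the cohorts. The adipocyte list mean ranged from 9.13 to 11.13 on female PPE and from 10.85 to 11.70 on female sham arrays, and its part in these values was not tested.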

How the data were processed

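The deposited values are log2 expression values of 65956 probe sets on 19 arrays (1 mouse per array, 100 ng RNA). Per the labels and the submitters' processing notes the authors made these log2 values with the Transcriptome Analysis Console on mm10. Its version and its handling of probe summaries and background are not given in the sources used. No other normalization was applied in the main tests. Probe sets with exactly 1 symbol in the platform annotation numbered 30604, with several 2146, and unlisted 33206. Symbols were updated for 827 probe sets through RefSeq gene IDs. Coordinates and promoters are those of RefSeq on GRCm38.p6. The brightest probe set per gene (mean over all arrays) was kept, which left 30142 genes, 355 of them with several probe sets. At most 2.5% of values were identical between 2 arrays.

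Groups came from the titles. limma 3.58.1 (R 4.3.3) fitted 4 group means over the 19 arrays with lmFit and eBayes, and p-values were adjusted over all 30142 genes. ± values are SE unless called SD, and intervals are 95%. The procedure was tested on simulated data (seed 1). The members, the 8 gene lists and the cell type markers were chosen with earlier results of these data known. From each list its first 2 genes and up to 4 called genes with the lowest p averaged over the cohorts were named if measured, and for genes changed by at least 1 log2 unit in either cohort the 3 nearest genes, leaving out predicted genes, small RNA genes and receptor segments. Retnla, Mrc1, Mgl2 and Cd163 were chosen after the values of Arg1 were seen. Figures used Python 3.11.15 and matplotlib 3.10.9. The alternatives tried were array weights, a replicate block, median centring, quantile normalization, a robust prior with a trend on intensity, the mean over probe sets, a filter on dim genes, only the groups compared, each array left out, 3 male arrays left out, and a 2-fold screen. List counts under these settings were added after seeing the data.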

Additional observations from a re-analysis of the deposited data

Results flagged for a closer look

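Kmo stood at 8.91 on female PPE 2, against 9.62 to 9.74 on the other female PPE arrays, the one low array of that group. The adipocyte marker mean was 12.78 on male sham 4, against 7.67 to 8.67 on the other male sham arrays. The mesothelium marker mean was 5.58 on male sham 4, against 4.93 to 5.10 on the others. Each of these arrays was set apart by a gap to its nearest neighbour that was large for the range of its group (Dixon's ratio). Of 57 groups of values examined in this way 3 were set apart, and chance alone sets apart about 1 in 20.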

How the results depend on the processing

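Counts of genes called by limma moved by over 1.5 times under several settings. In males 5923 genes were called (49.2% higher), 3535 with the replicate block, 1217 with the 2-fold screen, and 4958 to 6365 without 1 array; median centring gave 59.9% higher. The members called in males numbered 7, 3 with the 2-fold screen and 6 to 7 without 1 array. In females 1273 genes were called (65.6% higher), 3951 with array weights, 639 with the replicate block (78.9% higher), 2454 without the 3 male arrays, 1970 with the female arrays alone, 498 with the 2-fold screen, and 368 (without female sham 2) to 1613 (without male sham 4) without 1 array. The share higher was 47.6% after quantile normalization and 54.9% after median centring. The members called in females numbered 4, 2 with median centring, 2 with the female arrays alone, 3 with the replicate block and 0 to 4 without 1 array. For the difference between the cohorts 163 genes were called (7.36% higher), 313 with median centring (25.9%), 250 with the filter on dim genes, 931 with array weights (33.9%), 0 with the replicate block, 79 without the 3 male arrays (36.7%), and 0 to 426 without 1 array; no member was called under any of these settings. Median centring moved the median of all genes in that contrast to 0.125, against 0.029.

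Same-numbered PPE and sham arrays had correlations of their deviations over genes between −0.32 and 0.24, so the numbers were not taken as pairs. The filter on dim genes removed Ido1 and kept 17515 genes. Small differences changed sign: Slc7a2 in females stood at 0.033 with array weights and between −0.077 and 0.127 without 1 array (above 0 without female sham 1 or female PPE 2), and the cohort difference of Gch1 at 0.043 with median centring, 0.103 with array weights, 0.056 without the 3 male arrays, and between −0.172 and 0.069 without 1 array (above 0 without female sham 3, female PPE 1, male PPE 1 or male PPE 7). The cause was not tested. With the replicate block Slc7a2 in males and Kmo in females lost their calls (adjusted p = 0.115 and 0.0955). Over the fits without 1 array, Acod1, Nos2, Gch1, Arg2, Odc1 and Kmo in males kept their calls in all 19. Counts of the 8 lists ranged, without 1 array, from 2 to 5 of the tryptophan list in males and from 0 to 4 of the itaconate list in females. Dim signal limits Ido1, Nos2 and, in sham arrays, Arg2 and, in females, Acod1. Among the listed genes it limits Ifng, Il10, Gamt, Slc7a3 and, in sham arrays, Kynu and, in males, Retnla. Gad1-ps, a nearest gene of Arg2, was also dim in sham arrays. Il4, Il13, Nos1, Gchfr, Ido2 and Tdo2 lay below the olfactory receptor guide on every array.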
